A study of Homo sapiens with 12 samples.

Results

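The genes described here encode the proteins of the human mitochondrial ribosome. They are the 78 protein-coding genes, of 67049 gene IDs in each count file, whose symbol is MRPL or MRPS followed by a number and at most one letter. By symbol, 49 are named for the large subunit (MRPL) and 29 for the small subunit (MRPS). The rule goes by symbol and gene type. RNA was sequenced from cytoplasmic and nuclear fractions of HEK293T, an embryonic kidney cell line of human origin, at 48 h of a transient transfection with Lipofectamine 2000. The plasmid was pIRES2-SF3B1, carrying either the K700E substitution, which recurs in blood cancers, or the wild-type (WT) sequence of this U2 snRNP subunit. The 4 groups of 3 libraries each were K700E cytoplasm, K700E nucleus, WT cytoplasm and WT nucleus. All of them carried an SF3B1 plasmid on top of the cells' own SF3B1 gene, and no group without one is among the samples used here. Nothing in the labels says that libraries of one group came from separate cultures, so p-values measure only the spread between libraries, which may be technical. The series title states its question, which is whether SF3B1 mutations found in cancer inhibit the nuclear export of mRNA.

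The mitochondrial ribosome translates the mRNAs that mitochondria encode themselves, all of which specify subunits of the respiratory chain or the ATP synthase. Its ribosomal RNAs come from mitochondrial DNA, while every one of its proteins is encoded in the nucleus, translated in the cytosol and imported. The mRNA of each gene described here therefore has to leave the nucleus before it can be used. Many of these proteins descend from bacterial ribosomal proteins, and others were added in the mitochondrial lineage. Symbols follow the history of naming rather than the structure in some cases: the products of MRPS18A and MRPS30 sit in the large subunit, and the product of MRPS36 is now known as a subunit of the 2-oxoglutarate dehydrogenase complex (KGD4).

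Libraries held between 9086743 and 18116929 counts. The biological coefficient of variation was 0.306 over all groups, with the widest spread in WT nuclei (0.407) and the narrowest in WT cytoplasm (0.200). The fractions went with their labels: the nuclear RNAs MALAT1, NEAT1 and KCNQ1OT1 together had 89.5 to 128 CPM (the usual library-scaled count unit, here with TMM factors) in K700E cytoplasm and 74.5 to 132 in WT cytoplasm, against 2454 to 9673 in K700E nuclei and 2859 to 6177 in WT nuclei. All 6 markers of the HEK293T line were among the genes tested, as were 2 of 5 fibroblast markers, 1 of 2 hepatocyte markers and none of 4 blood markers, of which CD3E was at 0. The fibroblast markers summed to 115 CPM in WT nucleus 2, 29.4 to 39.1 CPM in the other nuclei and 15.03 to 30.3 CPM in the cytoplasm. SF3B1 mRNA from cells and plasmid together had 6917, 8294 and 8560 CPM in K700E cytoplasm and 1918, 1024 and 1857 CPM in K700E nuclei, against 10070, 10010 and 8206 CPM in WT cytoplasm and 2479, 1070 and 1180 CPM in WT nuclei. Gene counts do not separate the K700E from the WT sequence. In 3 libraries, WT nucleus 2, K700E cytoplasm 3 and WT cytoplasm 3, levels rose most steeply with the GC content of the transcript. Relative to the mean of the group, levels rose by 0.297, 0.229 and 0.141 log2 units for every 10 percentage points.

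Of the 78 genes, 73 had enough counts to be tested, 46 of the large and 27 of the small subunit. The 5 others were nearly uncounted in every library. MRPL53 had 0 counts in all 12 libraries together, MRPS12, a protein of the decoding centre, had 1, MRPS18B had 6, MRPL23, at the exit of the tunnel for the nascent peptide, had 57 and MRPL45, which neighbours that exit, had 70. Their neighbourhoods were also thinly counted in 4 of the 5 cases: within 500 kb on either side, 30 of 31 coding genes near MRPS18B had under 100 counts in total, as did 22 of 29 near MRPL23, 24 of 33 near MRPS12 and 10 of 17 near MRPL45. This held for 7 of 29 coding genes near MRPL53, and for 6396 of 19890 coding genes (32.2%) in all. For MRPL53, 45.2% of exon sequence lies within exons of CCDC142 on the same strand, and CCDC142 itself had 823 counts in K700E cytoplasm, 2315 in K700E nuclei, 1086 in WT cytoplasm and 3183 in WT nuclei. How reads that match several places were treated is not given in the sources used here, and 6353 IDs carry no gene name in the tables used, so near-zero counts do not show that these mRNAs were absent.

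Most mitoribosomal protein mRNAs were more abundant in CPM in the cytoplasm than in the nucleus. Together the 78 genes summed to 6073, 6079 and 6733 CPM in K700E cytoplasm, against 2320, 2473 and 2005 CPM in K700E nuclei. The sums were 7138, 7235 and 7699 CPM in WT cytoplasm, against 2414, 2509 and 2299 CPM in WT nuclei. Every cytoplasmic sum lay above every nuclear sum. As shares of raw counts, the members took 0.522% to 0.577% in K700E cytoplasm and 0.247% to 0.269% in K700E nuclei, and 0.598% to 0.650% in WT cytoplasm and 0.275% to 0.313% in WT nuclei. These are shares of the RNA sequenced from each fraction. A gene's molecules per cell in cytoplasm and nucleus cannot be had from them, since how much RNA each fraction held is not in the files.

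**Figure D1:**
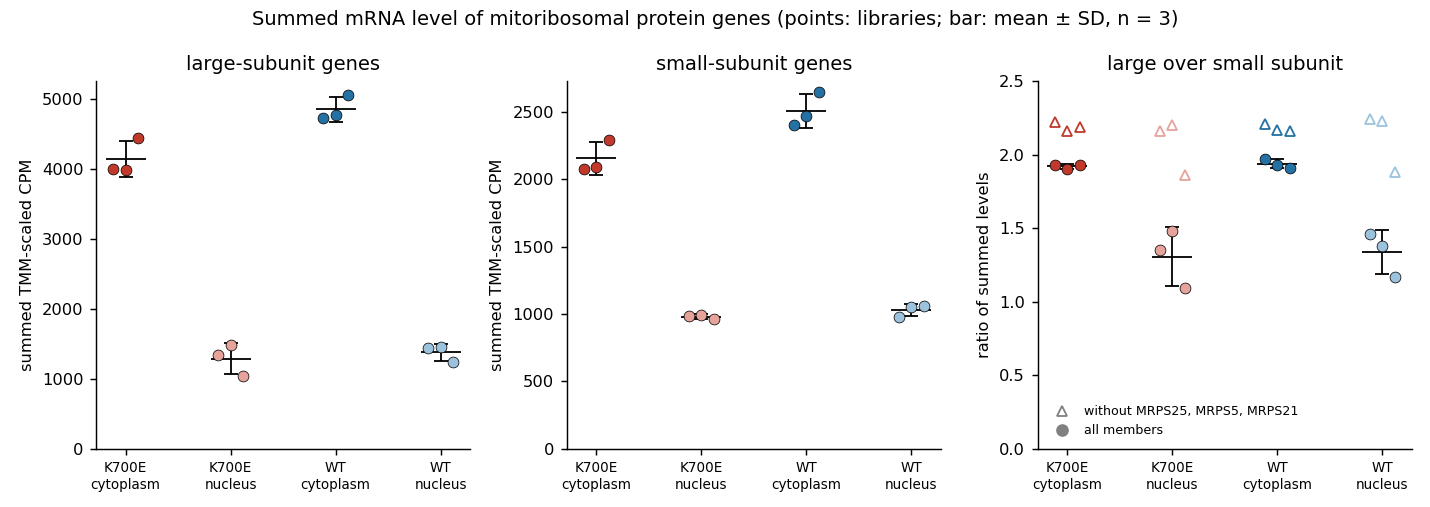
Summed level in TMM-scaled CPM of the large-subunit genes (left) and small-subunit genes (middle), and the ratio of those sums (right), in each library of K700E cytoplasm, K700E nucleus, WT cytoplasm and WT nucleus. Bars give the mean and SD of 3 libraries, and open triangles give the ratio without MRPS25, MRPS5 and MRPS21: the filled points are at 1.90 to 1.93 in K700E cytoplasm and 1.09 to 1.48 in K700E nuclei, and the triangles at 2.16 to 2.22 and 1.86 to 2.20.

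With K700E, 59 of the 73 tested members were called higher in the cytoplasm than in the nucleus and 4 lower (edgeR quasi-likelihood test, Benjamini-Hochberg adjusted p under 0.05 over 20394 genes). Among all genes tested, 28.1% were called higher and 37.9% lower, and among protein-coding genes 36.5% and 27.4%. With WT, 60 members were called higher and 3 lower, where all genes tested gave 27.1% higher and 40.0% lower and protein-coding genes 35.4% and 29.5%. By the libraries themselves, in 59 members every K700E cytoplasmic library lay above every K700E nuclear one and in 4 below, against 30.2% and 40.4% of all genes tested and 39.1% and 29.8% of protein-coding genes. With WT it was 61 above and 5 below, against 29.7% and 40.4% of all genes and 38.6% and 30.5% of protein-coding genes. The median log2 fold change of members was 1.78 with K700E and 1.93 with WT. The median over all genes tested was -0.29 with K700E and -0.40 with WT, and over protein-coding genes 0.19 and 0.13. The cytosolic ribosomal protein genes, which encode the ribosome that makes the mitoribosomal proteins, had medians of 2.89 with K700E and 2.65 with WT over 78 tested genes. The size of these medians depends on the scaling: with library size alone they were 1.35 for members with K700E and 1.42 with WT.

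The calls were largely of the same genes with both constructs. The constructs were measured in separate libraries, but the same fit to all 12 libraries gave both sets of calls. The sets are therefore not independent. Of the genes called higher, 58 were shared, 98.3% of those called with K700E and 96.7% of those called with WT. As 59 and 60 of the 73 members were called higher, K700E first, most would be shared in any case. No such share over all genes tested is given here, so whether the members stand out by it was not tested. The 3 genes called lower with WT, MRPL38, MRPS25 and MRPS24, were also called lower with K700E. The genes called with 1 construct alone were MRPL34 (higher) and MRPS6 (lower) with K700E, and MRPL22 and MRPS18C (both higher) with WT. In 3 of these 4 the call turned on single libraries: with K700E, MRPL34 was not called without K700E nucleus 2 or K700E cytoplasm 3, MRPL22 was called without WT nucleus 2, K700E nucleus 2 or K700E cytoplasm 3, and MRPS18C was called without any single WT nucleus or without K700E cytoplasm 1. For none of these 4 did the ratio itself differ between constructs at the adjusted threshold, as described further on.

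**Figure D2:**
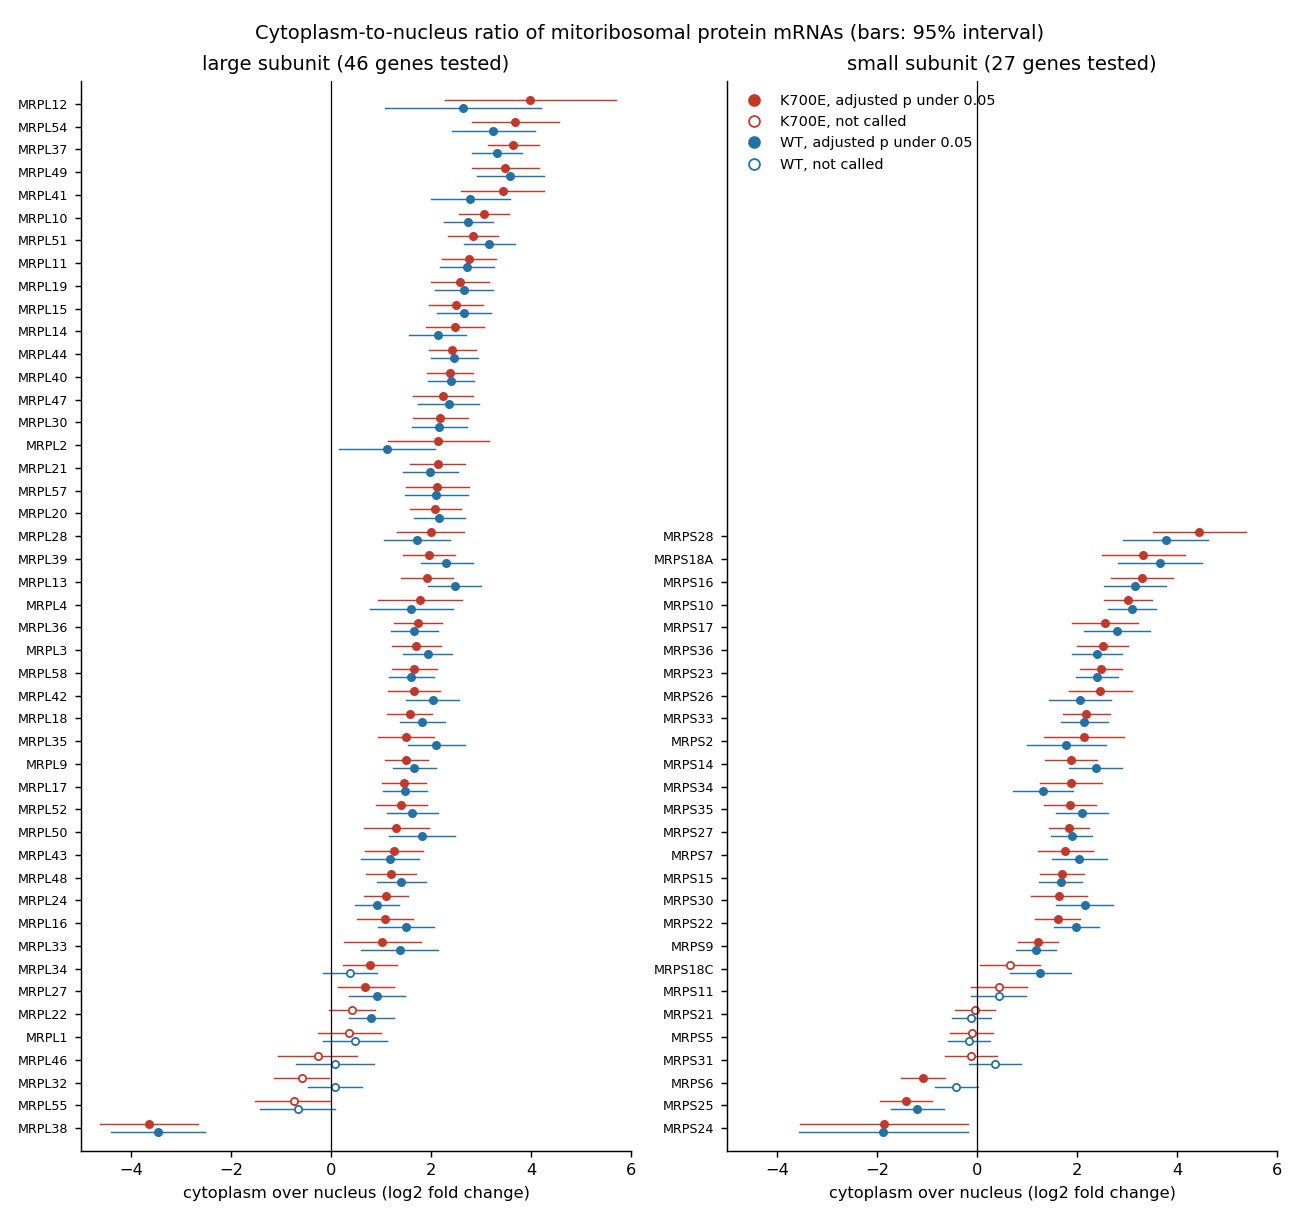
Log2 fold change of cytoplasm over nucleus for each of the 46 large-subunit (left) and 27 small-subunit genes tested (right), with K700E (red, upper) and WT (blue, lower) and 95% intervals. Filled points are called at adjusted p under 0.05: 59 members lie to the right with K700E and 60 with WT, and MRPL38 stands apart on the left at -3.63 and -3.45.

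MRPS28 (ENSG00000147586.10, chr8:79918717-80030289, minus strand, GRCh38 as in GENCODE 29), a small-subunit protein, had the highest ratio with both constructs. It had 6.68, 8.36 and 12.95 CPM in K700E cytoplasm, against 0.559, 0.173 and 0.523 CPM in K700E nuclei, and 13.3, 13.2 and 15.6 CPM in WT cytoplasm, against 1.10, 1.05 and 0.910 CPM in WT nuclei. Every cytoplasmic library lay above every nuclear one. The log2 fold change was 4.44 ± 0.44 with K700E (standard error, SE; adjusted p = 4.16e-07) and 3.77 ± 0.40 with WT (adjusted p = 8.54e-07). These rest on few nuclear reads, and exons of AC036214.3 cover 35.8% of its exon sequence on the same strand, although that gene itself had 4 counts in K700E cytoplasm, 0 in K700E nuclei, 4 in WT cytoplasm and 2 in WT nuclei.

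MRPL37 (ENSG00000116221.15, chr1:54184041-54225464, plus strand), a large-subunit protein without a bacterial relative, was the member with the highest level per kilobase of exon, 101 CPM per kilobase over the 12 libraries. Its level was 403, 382 and 571 CPM in K700E cytoplasm, against 43.0, 32.0 and 33.8 CPM in K700E nuclei. With WT it was 445, 448 and 578 CPM in the cytoplasm, against 51.7, 53.7 and 42.6 CPM in nuclei. The log2 fold change was 3.64 ± 0.24 with K700E (adjusted p = 2.11e-08) and 3.31 ± 0.24 with WT (adjusted p = 3.13e-08). MRPL49, which shares its promoter region with FAU on the opposite strand, had 132, 128 and 188 CPM in K700E cytoplasm, against 18.5, 9.24 and 12.04 CPM in K700E nuclei, and 168, 145 and 208 CPM in WT cytoplasm, against 20.8, 11.9 and 10.8 CPM in WT nuclei. Its log2 fold changes were 3.49 ± 0.32 with K700E and 3.58 ± 0.32 with WT.

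MRPS18A (ENSG00000096080.12, chr6:43671303-43687791, minus strand) is a relative of bacterial S18 and its product sits in the large subunit. It had 20.4, 20.3 and 36.8 CPM in K700E cytoplasm, against 3.59, 1.81 and 2.27 CPM in K700E nuclei, and 28.5, 26.9 and 43.1 CPM in WT cytoplasm, against 3.84, 2.46 and 1.46 CPM in WT nuclei. That is a log2 fold change of 3.33 ± 0.39 with K700E and 3.65 ± 0.40 with WT. Its relative MRPS18C, the small-subunit form, differed less between fractions, with 14.1, 19.6 and 22.9 CPM in K700E cytoplasm, against 13.2, 11.2 and 11.5 CPM in K700E nuclei, and 26.8, 26.9 and 34.7 CPM in WT cytoplasm, against 16.1, 7.72 and 13.01 CPM in WT nuclei. MRPS18C missed the threshold with K700E (0.66 ± 0.28, adjusted p = 0.0511) and was called higher with WT (1.26 ± 0.29, adjusted p = 0.00104), and the libraries of the 2 fractions did not overlap with either construct. The exons of RSPH9 cover 47.0% of MRPS18A exon sequence on the opposite strand and those of ABRAXAS1 40.2% of MRPS18C, and whether reads were counted by strand is not given.

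MRPL12 is the relative of the bacterial stalk protein that recruits translation factors. It had 16.4, 17.0 and 75.2 CPM in K700E cytoplasm, against 3.36, 2.25 and 1.22 CPM in K700E nuclei, and 28.7, 19.2 and 85.8 CPM in WT cytoplasm, against 2.82, 16.3 and 2.46 CPM in WT nuclei. The high values came from K700E cytoplasm 3, WT cytoplasm 3 and WT nucleus 2, the 3 libraries in which levels rose most with GC content, and the GC content of MRPL12 is 64.6%. Exons of AC139530.2 cover 68.2% of MRPL12 exon sequence on the same strand. That gene itself had 0 counts in K700E cytoplasm, 0 in K700E nuclei, 4 in WT cytoplasm and 0 in WT nuclei. The log2 fold change of MRPL12 was 3.98 ± 0.81 with K700E and 2.64 ± 0.74 with WT. Without K700E cytoplasm 3 the K700E value was 2.90, and the WT value was 4.12 without WT nucleus 2 and 1.75 without WT cytoplasm 3, all still called. MRPL54, at 60.9% GC, had a K700E value of 3.68 ± 0.41 and a WT value of 3.24 ± 0.39 that became 4.01 without WT nucleus 2. The other high ratios belonged to MRPL51 (2.84 ± 0.24 with K700E and 3.17 ± 0.24 with WT) and MRPL41 (3.43 ± 0.39 with K700E and 2.78 ± 0.38 with WT), both large-subunit proteins.

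**Figure D3:**
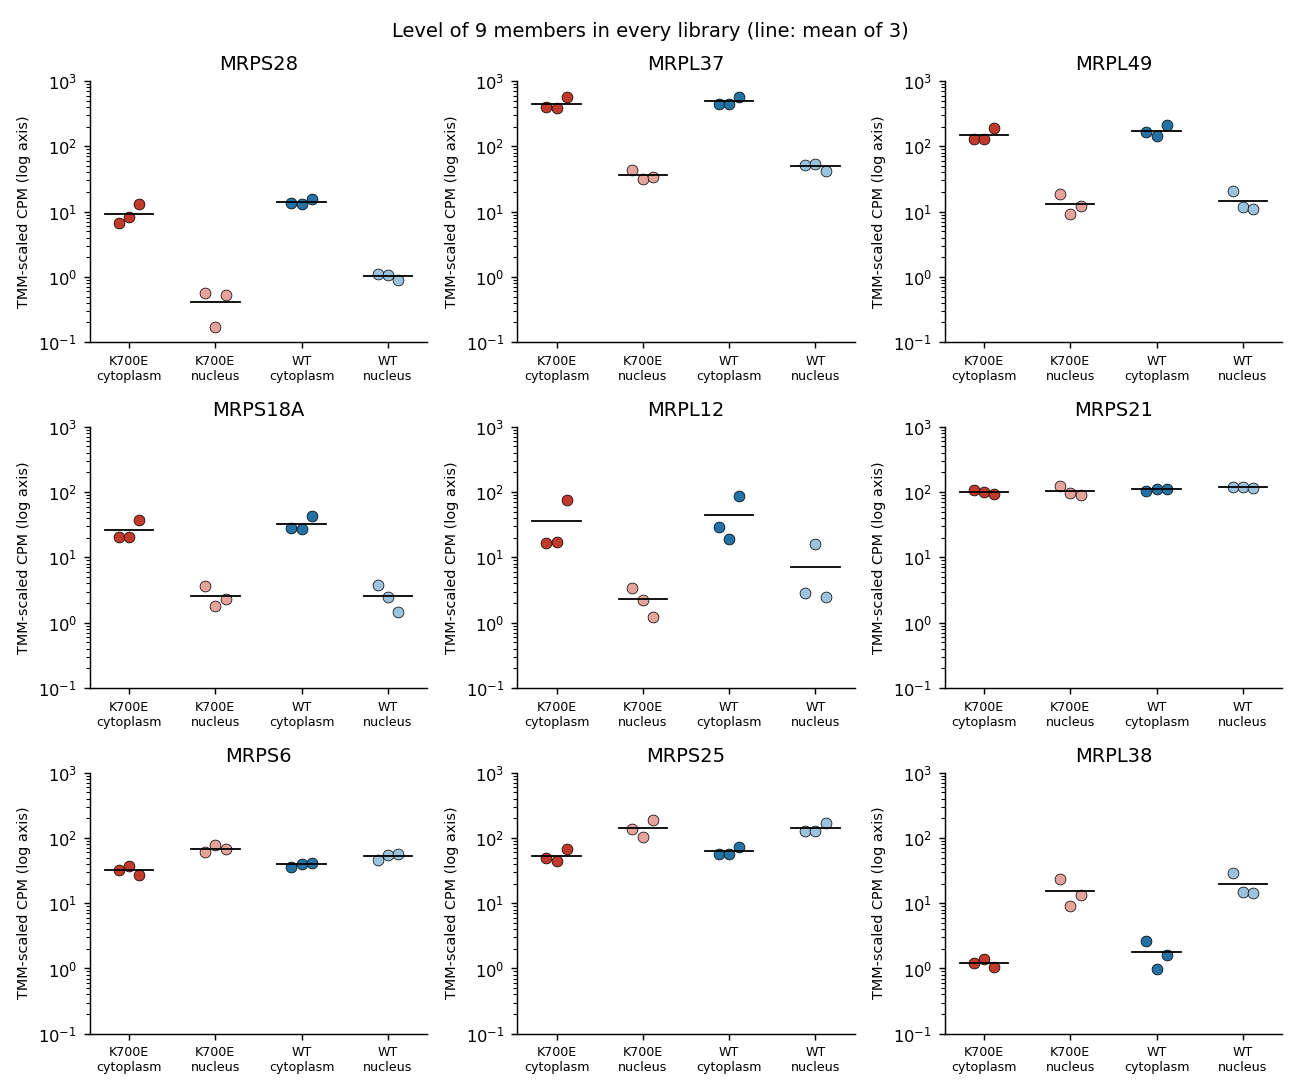
Level in TMM-scaled CPM, on a log axis, of 9 members in each library of K700E cytoplasm, K700E nucleus, WT cytoplasm and WT nucleus, with a line at the mean of 3. MRPS28, MRPL37, MRPL49 and MRPS18A are higher in every cytoplasmic than in every nuclear library, MRPS21 is at about the same level in all groups (90.6 to 123 CPM), and MRPS25 and MRPL38 are higher in every nuclear library.

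At the other end, MRPL38 (ENSG00000204316.13, chr17:75898643-75905413, minus strand), a protein of the central protuberance of the large subunit, had the lowest ratio with both constructs. It had 1.20, 1.39 and 1.07 CPM in K700E cytoplasm, against 23.5, 8.98 and 13.2 CPM in K700E nuclei. With WT it had 2.67, 0.997 and 1.63 CPM in the cytoplasm, against 28.8, 14.7 and 14.5 CPM in nuclei. The log2 fold change was -3.63 ± 0.46 with K700E (adjusted p = 4.93e-06) and -3.45 ± 0.45 with WT (adjusted p = 6.23e-06). A coding gene, AC087289.3, covers 37.5% of its exon sequence on the same strand. That gene had 3 counts in K700E cytoplasm and 45 in K700E nuclei, and 15 in WT cytoplasm and 59 in WT nuclei. With reads of overlapping genes of this kind not assignable from counts alone, the level of MRPL38 is uncertain.

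MRPS25 (ENSG00000131368.8, chr3:15042460-15065335, minus strand), a small-subunit protein of the mitochondrial lineage, had 48.6, 44.8 and 66.8 CPM in K700E cytoplasm, against 137, 103 and 191 CPM in K700E nuclei. With WT it had 56.3, 56.5 and 73.6 CPM in the cytoplasm, against 130, 129 and 168 CPM in nuclei. All nuclear libraries lay above all cytoplasmic ones, and the log2 fold change was -1.43 ± 0.25 with K700E (adjusted p = 0.000122) and -1.19 ± 0.25 with WT (adjusted p = 0.000538). Exons of NR2C2 cover 22.2% of its exon sequence on the opposite strand. MRPS24, called lower with both constructs, is counted at under 1 CPM on average over the libraries, and its call was lost with WT when any of 10 single libraries was left out and with K700E when any of 9 was.

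MRPS6, a relative of bacterial S6, had 32.8, 36.8 and 27.1 CPM in K700E cytoplasm, against 60.0, 77.5 and 67.5 CPM in K700E nuclei, and 36.2, 40.5 and 40.9 CPM in WT cytoplasm, against 45.9, 55.3 and 56.1 CPM in WT nuclei. It was called lower in the cytoplasm with K700E (-1.08 ± 0.21, adjusted p = 0.000250) and missed the threshold with WT (-0.42 ± 0.20, adjusted p = 0.0782). In both cases the libraries of the 2 fractions did not overlap. Part of its exon sequence, 9.61%, is shared on the same strand with SLC5A3 and AP000317.2.

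Another 5 low-ratio members had closer levels in the fractions, and none of them passed the threshold with either construct in the fit to all 12 libraries. With K700E, MRPL55 was called lower without K700E cytoplasm 3 (-1.16) or WT nucleus 2 (-0.705), and MRPL32 without K700E nucleus 3 (-0.767). With WT, MRPL55 was called lower without WT nucleus 1 (-0.877). MRPS21, a relative of bacterial S21 and the third member in level per kilobase, had 110, 99.5 and 92.2 CPM in K700E cytoplasm, against 123, 96.9 and 90.6 CPM in K700E nuclei, and 106, 112 and 112 CPM in WT cytoplasm, against 119.9, 120.0 and 117 CPM in WT nuclei. With WT every nuclear library was above every cytoplasmic one, by a small margin. The 95% interval of its log2 fold change ran from -0.44 to 0.35 with K700E and from -0.51 to 0.28 with WT. It also has 8 named pseudogenes, the most of any member, and reads could be shared with them. MRPS5 was at -0.11 ± 0.20 with K700E and -0.16 ± 0.20 with WT, MRPL55 at -0.75 ± 0.36 and -0.67 ± 0.36, MRPL46 at -0.27 ± 0.37 and 0.08 ± 0.37, and MRPL32, whose product is matured by the mitochondrial AAA protease, at -0.59 ± 0.26 and 0.08 ± 0.26.

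Promoters of members near both ends of this order are shown so that the ends can be compared in sequence. RefSeq promoter windows (GRCh38.p14, 250 bases before and 50 bases after the annotated start) were matched for 69 of the 78 genes. Below are the stretches from 150 bases before to 30 bases after the start of 4 members with high ratios, picked after their values were seen, MRPL37 (chr1:54200017-54200196, plus strand), MRPL49 (chr11:65122033-65122212, plus strand), MRPS18A (chr6:43687762-43687941, minus strand) and MRPL51 (chr12:6493233-6493412, minus strand), and 2 with low ratios, MRPL38 (chr17:75904855-75905034, minus strand) and MRPS25 (chr3:15065286-15065465, minus strand). Within these printed stretches, matches stand at both ends of the order and so do stretches with none, as in MRPL37, MRPL49 and MRPS25. Capitals mark exact matches, on either strand, to the ETS motif CCGGAAG and to the YY1 motif, which is the run in capitals in MRPL38.
MRPL37: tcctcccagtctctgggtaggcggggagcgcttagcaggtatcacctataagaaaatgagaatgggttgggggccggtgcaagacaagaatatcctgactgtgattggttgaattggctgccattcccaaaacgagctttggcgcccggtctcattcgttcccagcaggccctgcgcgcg
MRPL49: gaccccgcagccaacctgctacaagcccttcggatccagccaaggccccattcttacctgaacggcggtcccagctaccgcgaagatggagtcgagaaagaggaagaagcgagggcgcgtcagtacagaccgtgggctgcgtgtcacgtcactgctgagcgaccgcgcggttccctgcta
MRPS18A: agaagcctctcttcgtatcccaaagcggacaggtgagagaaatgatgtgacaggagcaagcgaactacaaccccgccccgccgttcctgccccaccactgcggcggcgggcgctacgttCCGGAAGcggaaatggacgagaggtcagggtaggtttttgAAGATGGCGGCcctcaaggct
MRPL51: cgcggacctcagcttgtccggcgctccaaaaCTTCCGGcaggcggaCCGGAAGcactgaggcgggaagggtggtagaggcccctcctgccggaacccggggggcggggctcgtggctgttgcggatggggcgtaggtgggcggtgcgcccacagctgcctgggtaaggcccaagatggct
MRPL38: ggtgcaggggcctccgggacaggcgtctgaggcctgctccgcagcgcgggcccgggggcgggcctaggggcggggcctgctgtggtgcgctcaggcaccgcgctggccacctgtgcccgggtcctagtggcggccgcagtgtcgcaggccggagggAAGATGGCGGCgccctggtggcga
MRPS25: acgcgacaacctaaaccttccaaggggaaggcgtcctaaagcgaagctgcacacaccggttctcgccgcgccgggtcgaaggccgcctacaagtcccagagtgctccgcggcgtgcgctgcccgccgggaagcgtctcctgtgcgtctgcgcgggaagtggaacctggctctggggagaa

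In the whole 300-base windows, CCGGAAG was found in 29 of 69 members (42.0%), against 14.2% of 15843 coding genes with a window. The YY1 motif was found in 10 members (14.5%), against 1.37% of those genes, and the NRF1 motif in 8 (11.6%), against 8.58%. Between the subunits the shares were 40.5% and 44.4% for the ETS motif and 11.9% and 18.5% for the YY1 motif, large subunit first. The 27 tested members with and 38 without the ETS motif had median log2 ratios of 1.87 and 1.68 with K700E and 1.93 and 1.80 with WT. For the YY1 motif, the medians with and without it were 1.30 and 1.77 with K700E and 1.67 and 1.85 with WT. They rest on only 9 tested members with the YY1 motif, against 56 without, and a difference was not tested. The YY1 sequence stands in the promoters of both MRPS18A and MRPL38, at opposite ends of the order. A match is a run of letters and not a measured binding site. The genes lie on 21 chromosomes with at most 8 on any one, and 29 of 78 (37.2%) have a coding gene on the other strand that starts within 1 kb, against 13% of 19940 coding genes.

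The median ratio of single genes was close in the large and the small subunit, while the first quartile was lower in the small subunit. First quartiles were 1.215 and 0.547 with K700E and 1.382 and 0.801 with WT, large subunit first. The lowest single values were in the large subunit, at -3.63 against -1.86 with K700E and -3.45 against -1.87 with WT. A difference between the subunits was not tested. With K700E, 40 of 46 large-subunit members were called higher in the cytoplasm and 1 lower, with a median of 1.76, and 19 of 27 small-subunit members were called higher and 3 lower, with a median of 1.83. With WT the counts were 40 higher and 1 lower with a median of 1.88 for the large subunit, and 20 higher and 2 lower with a median of 1.98 for the small. With MRPS18A and MRPS30 placed in the large subunit, where their products sit, and MRPS36 left out, the medians were 1.76 and 1.79 with K700E and 1.958 and 1.835 with WT, large subunit first. Members numbered within the bacterial series (MRPL1 to MRPL36 and MRPS2 to MRPS21) had medians of 1.74 with K700E and 1.72 with WT over 41 genes, and the 32 others 1.86 and 2.08. That split goes by number only: MRPS24 and MRPS28 fall among the others but have bacterial counterparts too.

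The ratio of the summed levels of the subunits differed by fraction. Large-subunit mRNAs summed to 1.93, 1.90 and 1.93 times the small-subunit sum in K700E cytoplasm, against 1.35, 1.48 and 1.09 times in K700E nuclei. With WT the ratio was 1.97, 1.93 and 1.91 in the cytoplasm, against 1.46, 1.38 and 1.17 in nuclei. The fractions did not overlap with either construct, and per kilobase of exon the ratio was 2.12 to 2.32 over the 6 cytoplasmic libraries and 1.37 to 1.73 over the 6 nuclear ones. The small-subunit genes MRPS25, MRPS5 and MRPS21, singled out after their values were seen, made up 11.7% to 13.1% of the small-subunit sum in K700E cytoplasm, against 32.6% to 41.8% in K700E nuclei, and 11.1% to 11.5% in WT cytoplasm, against 35% to 38.1% in WT nuclei. Taking them out of the sum raises the nuclear ratio by construction, and no large-subunit genes were taken out to match. Without them the ratio was 2.22, 2.16 and 2.19 in K700E cytoplasm, against 2.16, 2.20 and 1.86 in K700E nuclei, and 2.21, 2.17 and 2.16 in WT cytoplasm, against 2.24, 2.23 and 1.88 in WT nuclei.

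Other genes of mitochondrial translation were described by list, with no test between lists. Among mitoribosomal proteins under other symbols, 4 of 5 were called higher in the cytoplasm with K700E and 3 with WT, with GADD45GIP1, a large-subunit protein, at 3.35 ± 0.42 and 2.60 ± 0.40, and CHCHD1, a small-subunit protein, at 1.81 ± 0.27 and 1.995 ± 0.27. PTCD3, a pentatricopeptide protein of the small subunit, was called lower with both (-1.41 ± 0.20 and -1.32 ± 0.20), and DAP3, a GTP-binding subunit, was called with K700E (0.60 ± 0.20) and not with WT (0.15 ± 0.20). Of 17 translation factors, 6 were called higher and 3 lower with K700E and 8 and 3 with WT, with medians of 0.25 and 0.52. Those called higher were 35.3% with K700E and 47.1% with WT, against 36.5% and 35.4% of protein-coding genes, so the K700E share is near that background. SLIRP and TACO1, an mRNA-stabilising partner of LRPPRC and a translational activator of COX1 mRNA, were called higher (SLIRP 1.31 ± 0.31 with K700E and 1.82 ± 0.31 with WT, TACO1 1.95 ± 0.22 and 1.80 ± 0.22), and the release factor MTRF1 and the ribosome recycling factor MRRF were called lower (MTRF1 -1.56 ± 0.26 and -1.48 ± 0.26, MRRF -0.81 ± 0.20 and -0.68 ± 0.20). Of 26 tested factors of mitoribosome assembly and rRNA modification, 13 were called higher and 4 lower with K700E and 13 and 3 with WT, with medians of 0.64 and 0.76. NGRN (3.78 ± 0.37 and 3.77 ± 0.36), a factor bound to the large-subunit rRNA, and the GTPase MTG1 (-2.86 ± 0.43 and -2.84 ± 0.42), which acts on the large subunit, marked the ends of that list. Next to them by the WT ratio were RCC1L (2.26 ± 0.28 and 2.33 ± 0.28), a factor of mitoribosome assembly, and METTL17 (-1.94 ± 0.22 and -1.81 ± 0.22), which acts on the small subunit.

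Between K700E and WT in the cytoplasm, no mitoribosomal gene passed the threshold, but the members lay on one side. The log2 fold change was negative for 68 of 73 members (93.2%), against 47.6% of all genes tested and 48.7% of protein-coding genes, and the median of members was -0.25, against 0.00 over all genes and 0.01 over protein-coding genes. It was -0.28 for the large and -0.24 for the small subunit. In 27 members (37.0%) every K700E library lay below every WT library and in 0 members above, while 6.98% of all genes tested lay below without overlap and 6.60% above, and among protein-coding genes 8.07% and 7.39%. With edgeR 0 members were called, as with DESeq2 and limma voom, and 0.00490% of all genes tested were called higher and 0% lower. Of the 73 members, 6 had an unadjusted p under 0.05, against 929 of 20394 genes tested and 557 of 13895 protein-coding genes. All members were measured in the same 3 against 3 libraries, so their shared direction is not 73 separate observations. In bulk RNA, fewer cells with these mRNAs and less of them per cell cannot be told apart.

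The difference stood beside others in the same libraries. The cytosolic ribosomal protein genes had a median of 0.05 in this comparison, with 22 of 78 negative. The 13 mitochondrially encoded mRNAs were all negative with a median of -0.90, and none was called. They summed to 6108, 7162 and 7134 CPM in K700E cytoplasm, against 18780, 13760 and 4473 CPM in WT cytoplasm, so that 1 WT library lay below every K700E library. The part of this difference, or of the plasmid's SF3B1 level, in the members' values was not tested. For the members' sums the groups did not overlap, at 6073, 6079 and 6733 CPM in K700E cytoplasm and 7138, 7235 and 7699 CPM in WT cytoplasm. Leaving out single libraries gave medians from -0.32 to -0.20, and -0.29 was the value without the 3 libraries whose levels rose most steeply with GC content.

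MRPL20, a relative of bacterial L20 and the member with the smallest p, had 67.4, 83.1 and 106 CPM in K700E cytoplasm, against 127, 126 and 134 CPM in WT cytoplasm. Its log2 fold change was -0.59 ± 0.23 (adjusted p = 1.0, edgeR). MRPS7, which binds the small-subunit rRNA, had 78.1, 104 and 128 CPM in K700E cytoplasm, against 156, 145 and 176 CPM in WT cytoplasm, a change of -0.62 ± 0.25. In both genes the groups did not overlap, and the widest distance from WT was in K700E cytoplasm 1. MRPL51 had 106, 103 and 103 CPM in K700E cytoplasm, against 155, 162 and 134 CPM in WT cytoplasm (-0.53 ± 0.22), and MRPS18C had the values given above (-0.64 ± 0.28). MRPS28 was at -0.59 ± 0.34 and MRPL37 at -0.12 ± 0.22, with MRPL37 overlapping between groups.

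**Figure D4:**
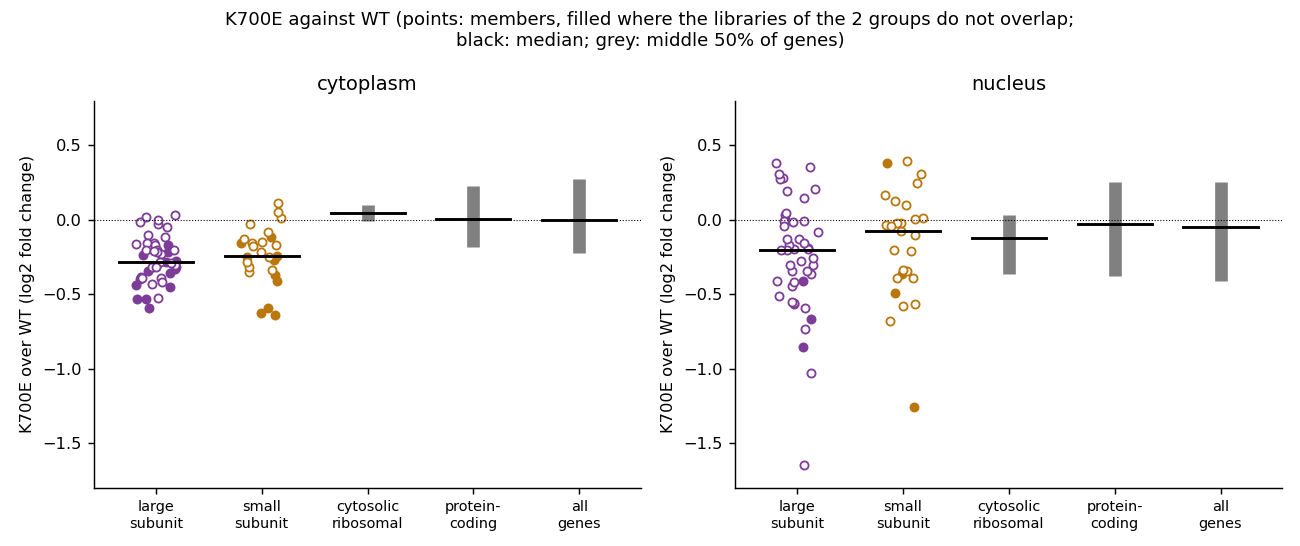
Log2 fold change of K700E over WT in the cytoplasm (left) and in the nucleus (right). Points are members by subunit, filled where the libraries of both groups do not overlap, black lines are medians and grey bars the middle 50% of the comparison sets: in the cytoplasm 68 of 73 members lie below 0, with medians of -0.28 and -0.24, while cytosolic ribosomal protein genes have a median of 0.05.

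In the nucleus the members were more scattered. No member was called (edgeR; 0 also with DESeq2 and limma voom), as was the case for 0% of all genes tested in either direction, and 7 of 73 members had an unadjusted p under 0.05, against 1389 of 20394 genes tested and 1206 of 13895 protein-coding genes. The median log2 fold change of members was -0.20, with 54 of 73 negative, against -0.05 and 54.2% negative over all genes, and it was -0.20 for the large and -0.08 for the small subunit. In 7 members (9.59%) every K700E library lay below every WT library and in 1, MRPS6, above, where 4.87% of all genes lay below and 3.91% above, and 5.27% and 4.10% of protein-coding genes. Leaving out K700E nucleus 3 brought the median of members to -0.09.

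MRPS28 had the smallest p in this comparison, with the nuclear values given above lower in every K700E than in every WT library (-1.26 ± 0.47, adjusted p = 0.659, edgeR). MRPS23, a small-subunit protein of the mitochondrial lineage, had 25.6, 19.8 and 18.9 CPM in K700E nuclei, against 32.8, 28.9 and 28.8 CPM in WT nuclei (-0.49 ± 0.19). MRPL14, a relative of bacterial L14, had 13.02, 11.8 and 8.20 CPM in K700E nuclei, against 14.6, 22.4 and 15.5 CPM in WT nuclei (-0.66 ± 0.27). MRPL41 had 3.91, 4.41 and 1.74 CPM in K700E nuclei, against 4.78, 8.51 and 5.00 CPM in WT nuclei (-0.86 ± 0.38). None of these 4 overlapped between groups. MRPL12 had the lowest value, -1.65 ± 0.79, where WT nucleus 2 had 16.3 CPM and the other WT nuclei 2.82 and 2.46 CPM. Without a filter on low counts MRPL12 was called, the only member that was in that setting (adjusted p = 0.00921).

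Across members, the difference in the nucleus followed GC content. Spearman's rho between the log2 fold change of K700E over WT and the GC content of the longest transcript was -0.64 over 73 members and -0.70 over 13886 coding genes, where the genes share the same 6 libraries. In the cytoplasm it was -0.15 and -0.083. The levels in WT nucleus 2 rose with GC content, as given above, and leaving it out gave a median of -0.18. With each library corrected for its own trend with GC content, the median of members was -0.15 in the nucleus and -0.30 in the cytoplasm. The correction can also shift the general level of a library, and that part was not separated from the GC trend. Across members, the cytoplasm-to-nucleus ratio itself showed little relation to GC content, with rho of 0.10 with K700E and -0.10 with WT. For transcript length rho was 0.0019 and 0.07 over members, against -0.19 and -0.13 over coding genes, K700E first.

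**Figure D5:**
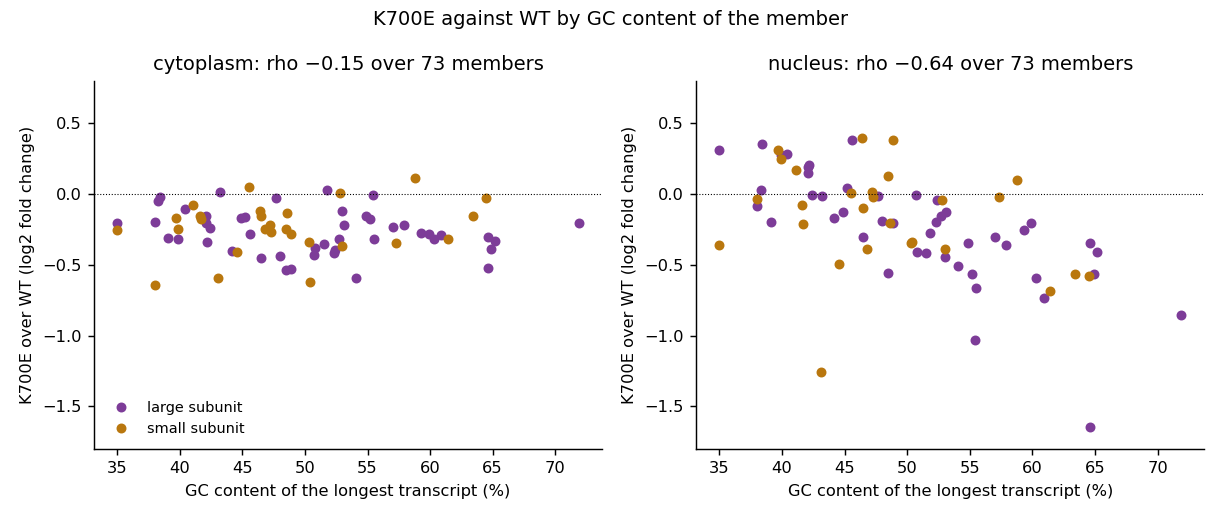
Log2 fold change of K700E over WT against the GC content of the longest transcript, in percent, for the 73 tested members in the cytoplasm (left) and the nucleus (right), coloured by subunit. In the nucleus the points fall with GC content (rho -0.64), and in the cytoplasm 68 of 73 lie below 0 (rho -0.15).

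The last comparison asked whether K700E changed the cytoplasm-to-nucleus ratio of the members. No member was called (edgeR; 0 also with DESeq2 and limma voom), 1 of 73 had an unadjusted p under 0.05, against 672 of 20394 genes, and 0% of all genes tested were called in either direction. The median of the difference in log2 ratio, K700E minus WT, was -0.08 over members, with 41 of 73 negative, -0.08 for the large and 0.01 for the small subunit, against 0.05 over all genes. Its sign was not fixed, since with library size alone the median was 0.04. MRPS6 had the smallest p, at -0.66 ± 0.29 (adjusted p = 0.980, edgeR), followed by MRPL32 at -0.66 ± 0.36, MRPL13 at -0.55 ± 0.34 and MRPL35 at -0.60 ± 0.37, all large-subunit proteins after the first.

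Single genes left wide room in this comparison. For MRPL35, a relative of bacterial L35, K700E had 68.3, 78.8 and 66.8 CPM in the cytoplasm and 28.5, 26.4 and 20.3 CPM in nuclei, against 93.2, 88.2 and 85.4 CPM in WT cytoplasm and 29.1, 12.3 and 20.7 CPM in WT nuclei. The log2 ratio was 1.51 ± 0.26 with K700E and 2.10 ± 0.27 with WT, and the 95% interval of the difference ran from -1.37 to 0.18. For MRPL13, a relative of bacterial L13, the interval ran from -1.26 to 0.16, and for MRPS28 from -0.55 to 1.89. For MRPL3, which reaches towards the peptidyl transferase centre and ranked second in level per kilobase, the ratios were 1.70 ± 0.23 with K700E and 1.93 ± 0.23 with WT, with an interval of the difference from -0.90 to 0.44. A miss of the threshold therefore does not show equal ratios with both constructs. The difference in ratio also followed GC content, with rho of 0.56 over members and 0.56 over coding genes.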

How the data were processed

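The deposited files hold raw counts per gene for 12 libraries, 3 in each of 4 groups, and the submitters' processing notes name HISAT2 and DESeq without versions. The genome build, annotation, RNA selection and strand setting remain not given in the sources used here. From these counts, levels were computed as TMM-scaled CPM with edgeR 4.0.16 in R 4.3.3, and genes were kept by filterByExpr (minimum count 10, minimum total 15), which left 20394. The quasi-likelihood F test was fitted to all 12 libraries with 1 term per group, and p-values were adjusted by Benjamini-Hochberg over all genes tested, at a threshold of 0.05. Logarithms of CPM in single libraries used a prior count of 2, which is not a setting of the fitted log2 fold changes. DESeq2 1.42.0 and limma 3.58.1 (voom) were alternatives, with other scalings, filters, left-out libraries, a replicate block and a correction for GC content. The fit was also run on simulated counts in which a small set of genes was changed, in WT cytoplasm alone. Many more genes were called between the real fractions, so the simulation does not check the scaling between them. Gene type, exon length, GC content and coordinates came from GENCODE 29 (GRCh38) by gene ID, which held 58396 of the 67049 IDs, and promoter sequences from RefSeq. Members and gene lists were chosen with earlier results of these data known. Genes named were MRPS28, the 6 highest and 6 lowest ratios with each construct at 5 CPM or more on average, the 4 smallest p-values in each comparison that involves both constructs, the 3 highest and 3 lowest levels per kilobase, the MRPS18 paralogs, members that failed the filter, and in each pathway list the 2 highest and 2 lowest WT ratios. MRPS24 and genes called with 1 construct alone were named after their values were seen. Intervals are at 95%, from the t distribution of the fit.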

Additional observations from a re-analysis of the deposited data

How the results depend on the processing

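Of 529 values that answer a comparison, recomputed under the alternatives, 30 moved beyond their spread or by over 1.5 times in count. Leaving out single libraries ended calls of single members: 4 with K700E (MRPL27, MRPL33, MRPL34 and MRPS24) and 2 with WT (MRPL2 and MRPS24). It also added calls: 5 with K700E (MRPL1, MRPL22, MRPL32, MRPL55 and MRPS18C) and 1 with WT (MRPL55). The median log2 ratio of members with K700E was 1.35 with library size alone, 1.40 with upper quartile factors and 1.47 with at least 1 CPM in every library. It was 2.10 with a GC correction, which can also shift the general level of a library. With WT the median was 1.42, 1.56, 1.64 and 2.28 in the same settings. Members called lower numbered 8 with library size alone and 2 with a minimum fold of 2 with K700E, and with WT 7 with library size alone, 7 with upper quartile factors, 5 with the 1 CPM filter and 1 with a minimum fold of 2. The median of the large minus that of the small subunit was 0.118 with K700E and 0.0699 with WT after the GC correction, and 0.123 with WT after reassigning MRPS18A, MRPS30 and MRPS36. For K700E against WT, the cytoplasmic median ranged from -0.319 to -0.202 as single libraries were left out, with K700E cytoplasm 3 giving the lowest, the subunit difference there was -0.112 without the 3 libraries rising most steeply with GC, and 1 member was called lower in the nucleus with no filter. The large-to-small ratio per kilobase averaged 2.13 in K700E cytoplasm, 1.56 in K700E nuclei, 2.25 in WT cytoplasm and 1.62 in WT nuclei. Without MRPS25, MRPS5 and MRPS21 the ratio of CPM sums averaged 2.19, 2.07, 2.18 and 2.12 in that order. After the reassignment it averaged 2.13 in K700E cytoplasm and 2.14 in WT cytoplasm. The reassigned ratio was 1.44, 1.63 and 1.14 in K700E nuclei and 1.55, 1.45 and 1.23 in WT nuclei. Among named genes with WT, MRPS21 turned to 0.0147 with no filter and 0.144 with the GC correction, and MRPS5 ranged from -0.259 to 0.0838 as single libraries were left out, turning without WT nucleus 2, and was 0.0769 with the GC correction and 0.0573 without those 3 libraries, none of them called. Leaving out those 3 libraries or the 3 genes, the reassignment and the block by fraction and number were chosen after seeing the data, and the causes of these shifts were not tested.

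Libraries with the same replicate number did not all deviate together: over 18 such pairs the correlation of deviations ran from -0.249 to 0.427 with a median of 0.0533, and 5 were over 0.1. Within a fraction all 6 such pairs were positive, from 0.0269 to 0.427 with 4 over 0.1. The 12 pairs with different numbers within a fraction ran from -0.326 to 0.173 with a median of -0.161, and 4 were over 0.1. Deviations were taken from group means and cancel out within each group, so these sets of pairs are not independent. With the replicate number as a block, 59 members were called higher and 3 lower with K700E and 59 and 2 with WT, and the medians were 1.79 and 1.94. With a replicate block by construct and number the medians were 1.78 and 1.95. Under the block by number the median of K700E against WT was -0.246 in the cytoplasm and -0.197 in the nucleus, and that of the change in ratio was -0.0537. With a replicate block by fraction and number they were -0.26, -0.193 and -0.0574, with 0 members called. Depth limited the low members most. MRPS24 averaged under 1 CPM over the libraries, with 1.62 CPM in K700E nuclei and 1.51 in WT nuclei, and nuclear MRPS28 rested on about 1 CPM or less.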
